A study of Mus musculus with 21 samples.

Results

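CD62L-high granulocyte-macrophage progenitors (GMPs) were compared with CD62L-high common myeloid progenitors (CMPs), 3 libraries of each, which are 6 of the 21 bulk RNA-seq libraries of the series. The 6 libraries were chosen by their labels alone, and every gene of the count table was analysed. All 21 libraries came from bone marrow of untreated C57/B6 mice, in which myeloid progenitors were sorted by FACS with or without a further gate on CD62L, giving 7 populations of 3 libraries each. Both populations compared here were lineage-negative (no GR-1, CD11b, TER119, B220, CD3e, CD4, CD8a or CD127), SCA-1-negative, C-KIT-positive and CD34-positive, and they differed in the gate on CD16/32, which was negative for CMPs and positive for GMPs. The CD62L-high slice was set within each population, so the same fluorescence cut was not applied to both. Set beside them were CD62L-low CMPs (CD62L-neg in the study's text), CD62L-neg GMPs, CD62L-low GMPs (CD62L-int in that text), and bulk CMPs and bulk GMPs, which carried no CD62L gate.

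CD62L is an adhesion molecule of the leukocyte surface, used here as a sorting marker. In the classical scheme of myelopoiesis the CMP gives rise to the GMP, and the GMP in turn to neutrophils and monocytes. Neutrophil granules are filled in order of synthesis: serine proteases and myeloperoxidase of the primary (azurophil) granule are made in the progenitor and promyelocyte, and proteins of the secondary and tertiary granules follow later. C/EBP family members, PU.1, IRF8, KLF4 and GFI1 are the transcription factors best known for directing these fates. The comparison asks how far the step from CMP to GMP changes transcription when both sides are already high in CD62L.

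The libraries held 11683991 to 14650082 counts in CD62L-high CMPs and 13810605 to 15095490 in CD62L-high GMPs. Between 23.6% and 24.9% of the counts of the CMP libraries fell on 3 gene models that take a large share in every library, against 27.8% to 41.1% in the GMP libraries, and CD62L-high GMP replicate 1 held the 41.1%. Mitochondrially encoded genes took 3.57% to 5.34% and 2.91% to 3.02% of the counts, respectively. On log2(CPM + 4) values, 2 libraries of different populations lay 0.548 apart on average (root mean square over genes), 2 CMP libraries 0.269 and 2 GMP libraries 0.411, and the lowest between-population distance, 0.48, equalled the highest within GMPs. Since the labels do not say whether the 3 libraries of a population came from separate mice, the spread on which every p-value rests could be technical. Levels are given in CPM, counts relative to the TMM-scaled library total, for replicates 1, 2 and 3 in that order, and fold changes as log2 of CD62L-high GMP over CD62L-high CMP with the standard error of the edgeR fit. A signed or unsigned value alone in parentheses after a gene is its log2 fold change. CPM is not corrected for gene length, so levels are compared between populations and not between genes.

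The genes behind the sort were examined first. Fcgr3 (ENSMUSG00000059498.13), which encodes the low-affinity IgG receptor CD16, stood at 15.9, 14.1 and 15.6 CPM in CD62L-high CMPs and at 149, 141 and 150.0 CPM in CD62L-high GMPs. The groups were far apart, with a log2 fold change of 3.27 ± 0.14 (SE), adjusted p = 2.62e-06, in the direction of the CD16/32 gate. Fcgr2b, which encodes CD32 and is read by the same antibody, was higher as well, with 27.1, 23.6 and 18.9 against 55.7, 58.0 and 47.6 CPM and a log2 fold change of 1.21. Kit, the stem cell factor receptor, was 200.2, 227 and 242 CPM and 148, 139.9 and 110.2 CPM, without overlap, and its log2 fold change of -0.75 ± 0.15 (SE), adjusted p = 0.00905, passed the test but not the 2-fold limit. Cd34, on which both gates were positive, stood at 400.0, 381 and 409.7 CPM and 182, 174 and 149.7 CPM, a log2 fold change of -1.24 ± 0.13 (SE), adjusted p = 0.000231. The transcript was thus lower in GMPs although both populations were sorted as CD34-positive. In bulk samples, fewer cells of a type and less RNA per cell cannot be told apart, and this holds for every difference below.

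Of 12956 genes tested, 348 (2.69%) were higher in CD62L-high GMPs and 612 (4.72%) lower, where a call needed a fold over 2 and an adjusted p under 0.05, so 7.41% were called in all. These shares are the background for the counts of every gene list below. Without the limit on the fold, 758 were higher and 832 lower (12.3%). Libraries of the 2 populations did not overlap for 4268 genes, 32.9% of those tested, and among the called genes this was so for 347 of the 348 higher and all 612 lower ones. The called set was uneven in size of effect: 48 of the higher and 233 of the lower genes passed 8-fold. Most were protein coding, 330 and 576 respectively. The median log2 fold change over all genes tested was -0.025. The number of lower genes rested on single libraries more than the number of higher ones, since it was 361 without CD62L-high CMP replicate 3, 368 without CD62L-high CMP replicate 2 and 812 without CD62L-high GMP replicate 1.

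**Figure D1:**
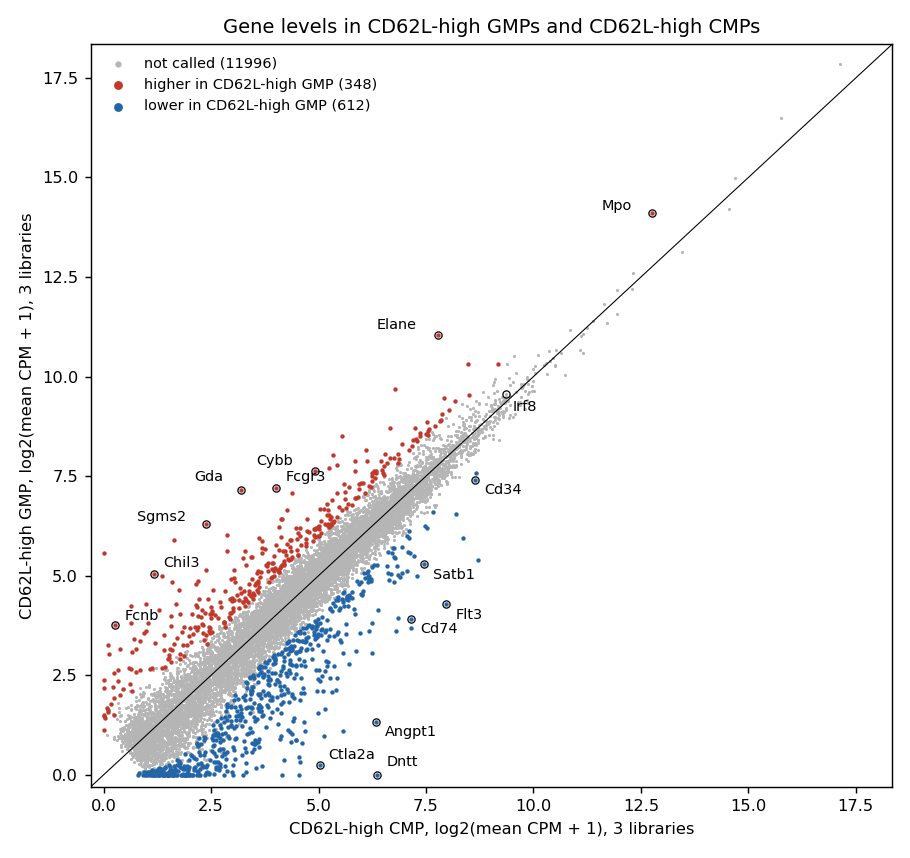
Mean level of each tested gene in CD62L-high CMPs (horizontal) and CD62L-high GMPs (vertical), both as log2(mean CPM + 1) over 3 libraries, with the 348 genes called higher and the 612 called lower in GMPs in colour and the rest in grey. Mpo and Elane stand above the diagonal at high levels, while Dntt, Ctla2a and Angpt1 lie at or near the bottom, where the GMP libraries held few or no counts.

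The list with the most higher genes was that of the neutrophil primary granule. It also holds genes whose products are not known as contents of that granule, such as Ms4a3 and Gstm1, so its counts are not of granule contents alone. Of its 22 listed genes, 21 were tested, 14 were higher in CD62L-high GMPs and 0 lower, against 2.69% higher and 4.72% lower among all genes, and the median log2 fold change of the 21 was 1.5. The count of 14 was the same when any 1 of the 6 libraries was left out. The sequence ahead of 4 of these genes is shown because their log2 fold changes range widely, from 1.33 for Mpo to 5.76 for Fcnb. Whether motif matches go with the size of the fold change was not tested. The windows are the 250 bases before the annotated start of the RefSeq gene (build GRCm38.p6, 5′ to 3′ on the strand of the gene), and capitals mark the matches of a searched motif. In the first 3 the motif was GAGGAAGT, an ETS-type sequence of the kind bound by PU.1, and in Fcnb it was TTGCNNAA, a core form of C/EBP sites, whose matches in Fcnb read as the reverse complement. Both strands were searched, and the motifs were chosen after matches had been seen. AGATAA and TGTGGT were searched as well and had no match in the 4 windows. Matches in the other called members were not counted.

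Prtn3, chr10:79879417-79879666, plus strand: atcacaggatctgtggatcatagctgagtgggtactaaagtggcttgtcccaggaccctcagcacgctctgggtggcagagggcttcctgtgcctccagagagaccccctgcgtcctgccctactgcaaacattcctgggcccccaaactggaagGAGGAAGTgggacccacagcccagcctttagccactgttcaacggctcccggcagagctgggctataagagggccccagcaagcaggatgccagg
Elane, chr10:79886062-79886311, plus strand: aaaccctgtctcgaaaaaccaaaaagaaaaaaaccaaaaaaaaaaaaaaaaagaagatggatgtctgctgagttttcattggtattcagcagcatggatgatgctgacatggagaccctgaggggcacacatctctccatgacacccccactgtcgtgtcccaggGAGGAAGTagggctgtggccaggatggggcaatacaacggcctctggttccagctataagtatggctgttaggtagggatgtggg
Mpo, chr11:87793534-87793783, plus strand: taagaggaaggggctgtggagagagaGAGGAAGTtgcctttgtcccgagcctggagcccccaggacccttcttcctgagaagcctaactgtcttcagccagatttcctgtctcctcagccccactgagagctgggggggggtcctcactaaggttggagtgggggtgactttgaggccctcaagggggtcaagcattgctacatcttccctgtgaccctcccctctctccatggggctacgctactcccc
Fcnb, chr2:28084879-28085128, minus strand: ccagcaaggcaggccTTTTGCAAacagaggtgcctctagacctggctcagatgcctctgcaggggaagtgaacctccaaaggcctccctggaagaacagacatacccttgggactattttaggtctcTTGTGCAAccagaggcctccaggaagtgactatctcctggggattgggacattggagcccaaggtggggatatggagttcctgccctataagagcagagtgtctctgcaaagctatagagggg

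The match lay 88 to 95 bases before the start in Prtn3, 78 to 85 in Elane and 217 to 224 in Mpo, and Fcnb held 2 matches, TTTTGCAA at 228 to 235 and TTGTGCAA at 116 to 123 bases. Among 32851 windows of the same length, 802 (2.44%) held GAGGAAGT and 3142 (9.56%) held TTGCNNAA on either strand. A match is a description of the letters and not of binding.

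Elane (ENSMUSG00000020125.6), neutrophil elastase, stood at 247, 219 and 191 CPM in the CD62L-high CMP libraries and 2518, 1922 and 1943 CPM in the CD62L-high GMP libraries. The lowest GMP library was many times above the highest CMP library, and the log2 fold change was 3.28 ± 0.17 (SE), adjusted p = 4.92e-06. Prtn3, proteinase 3, whose gene lies close to Elane on chromosome 10, stood at 389, 325 and 351 and 1597, 1112 and 1146 CPM, a log2 fold change of 1.86 ± 0.17. Mpo, myeloperoxidase, stood at 7670.2, 6718 and 6550.3 CPM in CD62L-high CMPs and at 20409.7, 16109 and 16072 CPM in CD62L-high GMPs. The populations did not overlap, but the log2 fold change of 1.33 ± 0.14 (SE), adjusted p = 0.000251, was smaller than that of Elane. Ctsg, cathepsin G, behaved like Mpo, with 283, 239.9 and 264 against 541, 584 and 581 CPM and a log2 fold change of 1.12. Ms4a3, a membrane protein that marks granulocyte-monocyte progenitors, stood at 19.2, 17.6 and 23.2 and 141, 130.2 and 129 CPM (2.74). Further called members were Gstm1, a glutathione transferase of a family with near-identical copies (37.6, 38.3 and 42.3 and 309, 218 and 250.4 CPM, 2.72), the haemoglobin scavenger Hp (40.4, 39.0 and 31.5 and 146, 229.6 and 247 CPM, 2.49), the receptor Clec5a (2.46), the protease inhibitor Slpi (1.59) and the serine protease Prss57 (10.5, 7.43 and 10.3 and 37.4, 22.1 and 20.6 CPM). The step from CMP to GMP was thus small for Mpo and Ctsg and large for Elane and Ms4a3. Fcnb, a ficolin that recognises microbial sugars, had the largest fold change of the group, with 0, 0.128 and 0.502 CPM in CMPs and 10.2, 12.9 and 14.6 CPM in GMPs (5.76 ± 0.64 (SE), adjusted p = 0.000297). It was at or near 0 in every CMP library and at a low level in every GMP library.

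Genes listed for the secondary and tertiary granules, which include the microsomal enzyme gene Mgst1, were mostly rare. Of 25 listed, 14 passed the filter on low counts, 7 of these were higher in CD62L-high GMPs and 0 lower, with a median log2 fold change of 1.65 over the 14. Chil3, a chitinase-like lectin with a near-identical copy in Chil4, stood at 1.21, 1.03 and 1.51 and 23.0, 30.1 and 42.8 CPM (4.67). Lcn2, the siderophore-binding lipocalin 2, stood at 1.04, 1.03 and 0.878 and 15.1, 8.90 and 9.43 CPM (3.49), and Mgst1, a microsomal glutathione transferase, had a log2 fold change of 2.08. Lactotransferrin, cathelicidin, Ngp and Ly6g, the defining genes of later neutrophils, summed to 0 to 1.32 CPM in CMPs and 0.08 to 2.24 CPM in GMPs, so neither population held them at more than traces.

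Monocyte and macrophage genes split. Of 44 listed, 37 were tested, 11 were higher and 4 lower, and the median log2 fold change was 0.519. Ly6c2, which together with its near-identical neighbour Ly6c1 encodes the Ly6C antigen of inflammatory monocytes, stood at 131, 87.2 and 107 CPM in CMPs and 1083, 667 and 730.2 CPM in GMPs (2.93 ± 0.22 (SE), adjusted p = 3.22e-05). How the counting treated reads shared by the 2 Ly6c genes is not given, so the counts of either may be affected. Lyz2, lysozyme M, had a log2 fold change of 2.06, Tgfbi, a matrix protein secreted by macrophages, of 2.36, Fn1, fibronectin, of 2.23, and Adgre1, which encodes F4/80, of 2.28. Csf1r, the M-CSF receptor, stood at 205, 172 and 173 CPM and 338, 287 and 281 CPM, without a call (0.72 ± 0.14 (SE), adjusted p = 0.00706). Of the 4 lower genes, Plbd1, a phospholipase B-like enzyme, was at 26.8, 39.9 and 48.9 against 2.64, 2.69 and 4.45 CPM (-3.55), and Ifi205, an interferon-inducible gene of a family with close copies, had a log2 fold change of -3.31.

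Effector and sensing genes were higher in part, where 2.69% of all genes tested were higher and 4.72% lower. Of the 7 subunits and regulators of the NADPH oxidase, which makes superoxide in phagocytes, 2 were higher and 0 lower. Cybb, the catalytic subunit gp91phox, stood at 35.0, 24.8 and 27.2 CPM and 229.9, 178 and 188 CPM (2.78 ± 0.18 (SE), adjusted p = 1.3e-05), and Cyba, its membrane partner p22phox, had a log2 fold change of 1.11. Of 22 lysosomal protease genes, 16 were tested, 4 were higher and 1 lower, among them Ctsc, which activates the granule serine proteases (1.64), and Ctsh (1.16), both higher. Fc receptor and adaptor genes gave 6 higher and 0 lower among 19 tested. They included Trem2, a lipid receptor of macrophages (3.53 ± 0.71 (SE)), and the inhibitory sialic acid receptor Siglece (2.64). Both were rare in CMPs, Trem2 at 0.723, 0.0641 and 1.25 against 11.7, 5.98 and 6.20 CPM. Siglece stood at 1.29, 2.69 and 1.88 against 17.0, 9.57 and 10.4 CPM. Pattern recognition receptors gave 6 higher and 3 lower among 38 tested, and the 3 lower ones were no longer called when any 1 CMP library was left out. Clec7a, the beta-glucan receptor Dectin-1, stood at 32.5, 18.5 and 28.0 and 71.3, 61.5 and 69.7 CPM (1.36), and the lipopolysaccharide co-receptor Cd14 had a log2 fold change of 1.92.

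**Figure D2:**
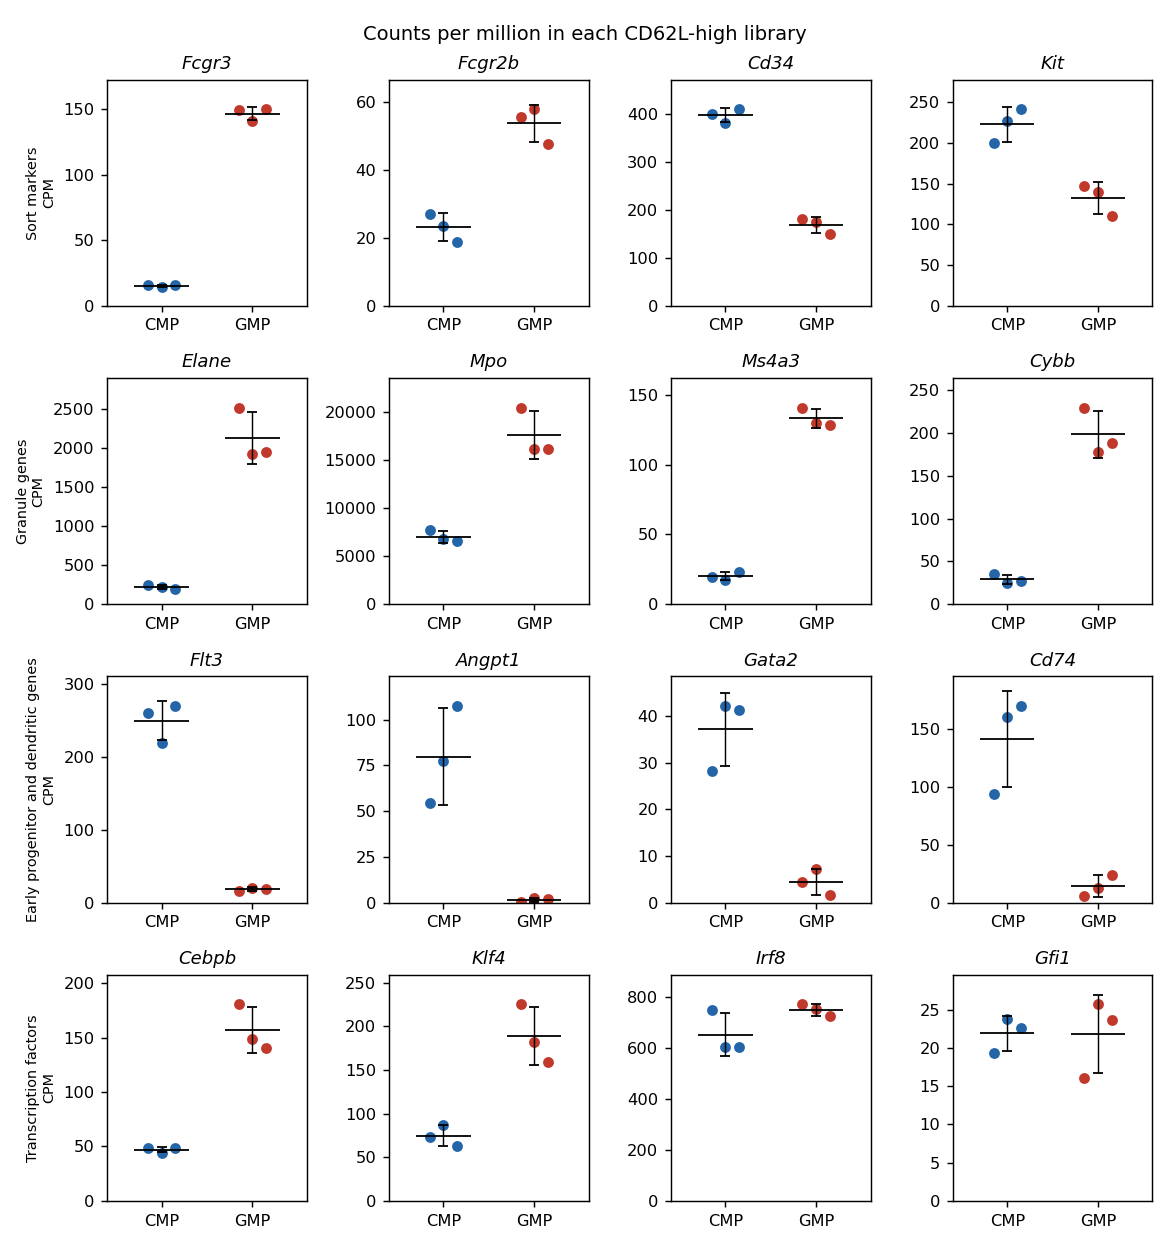
CPM of 16 genes in each of the 3 CD62L-high CMP and 3 CD62L-high GMP libraries (points), with the mean and SD of each population (n = 3), each panel on its own linear axis from 0. The 2 populations overlap for Irf8 and Gfi1, and lie apart for genes such as Elane, Cybb and Flt3.

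Cytokine receptors were more often called lower than higher, 8 against 2 of 33 tested. With the adjusted p alone the counts were closer, 10 lower and 7 higher. All genes tested leaned the same way, with 4.72% lower and 2.69% higher. The 2 that also passed the 2-fold limit as higher were Csf2ra, the alpha chain of the GM-CSF receptor (31.6, 31.3 and 31.8 and 126, 90.6 and 86.9 CPM, 1.68), and Ifngr1, the ligand-binding chain of the interferon gamma receptor (1.19). Flt3, the receptor of a cytokine that sustains multipotent, lymphoid and dendritic progenitors, was lower in CD62L-high GMPs, at 261, 219 and 269.8 CPM in CMPs and 15.7, 20.6 and 19.2 CPM in GMPs. All 3 GMP libraries lay far below all 3 CMP libraries, and the log2 fold change was -3.75 ± 0.17 (SE), adjusted p = 2.62e-06. Il1r1, the signalling receptor of interleukin-1, had a log2 fold change of -2.68. Il7r, which encodes CD127, a marker in the lineage cocktail, held no count in GMPs and was at least 42.3-fold lower there, taking 3 counts over the 3 pooled libraries as the floor. Csf2rb, the common beta chain (0.83 ± 0.16 (SE), adjusted p = 0.00709), and the G-CSF receptor Csf3r (0.22 ± 0.16 (SE), adjusted p = 0.43) were not called.

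Beyond the lists, the rule for the 12 largest higher genes named several outside them. Gda, guanine deaminase, stood at 8.28, 11.1 and 5.21 CPM in CMPs and 129, 156 and 139 CPM in GMPs (4.11 ± 0.25 (SE), adjusted p = 1.06e-05). Sgms2, a sphingomyelin synthase, had a log2 fold change of 4.19, the lectin Clec4a2 of 4.48, the transporter Abca13 of 4.98, the alpha-glucosidase Mgam of 4.33, the neural adhesion molecule Ncam1 of 3.73 and lipoprotein lipase, Lpl, of 3.52. Abca13 stood at 0.321, 0.897 and 0.439 CPM in CMPs and 20.0, 15.2 and 18.7 CPM in GMPs, so that it was near 0 in every CMP library. Ncam1 was likewise low in CMPs, at 0.723, 2.56 and 2.82 CPM, against 25.2, 30.6 and 27.2 CPM in GMPs.

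Among the lists, that of stem and multipotent progenitors held the most lower genes. Of 40 listed, 28 were tested, 19 were lower in CD62L-high GMPs and 0 higher, and the median log2 fold change was -2.22. The count was 12 without CD62L-high CMP replicate 3. Angpt1, the ligand of the TIE2 receptor, stood at 54.6, 77.2 and 108 CPM in CMPs and 0.4, 2.39 and 1.75 CPM in GMPs (-5.69 ± 0.44 (SE), adjusted p = 3.84e-05). Gata2, the transcription factor required for stem cell maintenance and for mast cell and megakaryocyte progenitors, stood at 28.2, 42.2 and 41.3 and 4.40, 7.25 and 1.55 CPM (-3.09 ± 0.43 (SE), adjusted p = 0.00112). Replicates of this gene spread widely on both sides, yet did not overlap. Homeobox regulators of self-renewal were lower too, Meis1 by 2.33 and Hoxa9 by 2.01 on the log2 scale, as were the leukaemia-associated factor Hlf (-2.86), the TNF receptor family member Cd27 (-3.24), Sox4 (-2.44) and the ETS factor Erg (-1.53).

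Genes of dendritic cells and antigen presentation formed the next group, with 14 lower and 1 higher among 23 tested of 28 listed and a median log2 fold change of -2.89. The number lower was between 10 and 16 when 1 library was left out. Cd74, the invariant chain that escorts MHC class II molecules, stood at 94.0, 161 and 170.4 CPM in CMPs and 5.36, 12.7 and 24.2 CPM in GMPs (-3.32 ± 0.44 (SE), adjusted p = 0.000874). The class II chains H2-Aa (-3.36), H2-Ab1 (-2.96) and H2-Eb1 (-2.82) were lower with it. Clec9a, a receptor of cross-presenting dendritic cells, had a log2 fold change of -3.77, and Tcf4, the master regulator of plasmacytoid dendritic cells, of -1.36. The 1 higher gene was the protease Ctsh. The sum of 4 defining dendritic genes (Cd74, H2-Aa, Batf3 and Clec9a) was 164 to 285 CPM in CMPs and 10.8 to 37.3 CPM in GMPs, and the part of such cells in these differences was not tested.

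Early lymphoid genes were lower in 6 cases and higher in 0 of 13 tested, of 25 listed. Dntt, terminal deoxynucleotidyl transferase, the enzyme that adds nucleotides at antigen receptor joints, stood at 162, 37.5 and 45.3 CPM in CMPs and had no count in any GMP library, at least 1020-fold lower. Among the CMP libraries its level was uneven. Satb1, a chromatin organiser with a role in lymphoid priming, stood at 182, 172 and 169 and 43.9, 38.4 and 31.6 CPM (-2.20 ± 0.16 (SE), adjusted p = 2.28e-05), and Bcl11a, needed for lymphoid and dendritic progenitors, fell by 1.59 on the log2 scale. Lck, a T cell kinase, had no count in GMPs and was at least 34.9-fold lower. Of the T and NK cell genes Cd3e, Cd4, Cd8a and Ncr1 the sum was 1.09 to 1.69 CPM and 0 to 0.24 CPM, with Cd8a at 0 in both.

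Megakaryocyte genes gave 9 lower and 0 higher among 14 tested of 28 listed, and erythroid genes 4 and 0 among 10 tested of 28 listed. Itga2b, which encodes the platelet integrin CD41, stood at 6.51, 9.68 and 10.6 CPM and 0.56, 0 and 0.135 CPM (-5.26). Zfpm1, the GATA cofactor FOG-1 (-2.94), the transferrin receptor relative Tfr2 (-3.61) and carbonic anhydrase 2, Car2 (-3.71), were lower as well. The number of lower erythroid genes was 7 without CD62L-high GMP replicate 1. The levels were low in CMPs already: the 5 megakaryocyte genes Itga2b, Pf4, Gp9, Gp1bb and Vwf together made up 12.1 to 17 CPM there and 0.523 to 0.56 CPM in GMPs. Basophil and mast cell genes gave 1 higher and 2 lower among 8 tested. The higher one was Hdc, at 14.5, 23.3 and 21.8 and 43.7, 48.5 and 38.1 CPM (1.12), and the lower ones were Gata2 and Cpa3. Cpa3, mast cell carboxypeptidase, had 763 counts in CMPs and 0 in GMPs, at least 235-fold lower. These 3 GMP libraries were the only ones of the 21 without a count of Cpa3, and CD62L-low GMP libraries held 209, 128 and 108. The sum of Ms4a2, Mcpt8, Cpa3 and Prss34 was 16.2 to 25.7 CPM and 2.56 to 3.66 CPM. Most of it in CMPs was Cpa3, at 11.3, 17.2 and 22.3 CPM, while Mcpt8 was not called (-0.33 ± 0.50 (SE), adjusted p = 0.734). Whether other cell types within the CMP gate account for any of these differences was not tested.

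Of the 12 largest lower genes by rule, several belonged to none of the groups above. Slc22a3, an organic cation transporter, held 1012 counts in CMPs and 0 in GMPs, at least 312-fold lower. Spns2, the exporter of sphingosine-1-phosphate, stood at 38.3, 55.0 and 46.3 CPM in CMPs and 0.64, 1.57 and 1.21 CPM in GMPs (-5.33 ± 0.30 (SE), adjusted p = 5.9e-06). Hmga2, a chromatin protein of fetal and self-renewing cells (-5.98), the fatty acid desaturase Fads2 (-5.85) and Zfp36l1, which promotes mRNA decay (-5.02), were lower as well, each at 15 CPM or more in every CMP library.

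Immediate early and heat shock genes, which respond within minutes to growth factors and stress, were lower in 7 and higher in 0 of 28 tested. Egr1 stood at 29.7, 62.0 and 61.5 CPM in CMPs and 3.84, 8.45 and 5.39 CPM in GMPs (-3.11 ± 0.35 (SE), adjusted p = 0.000324), Nr4a1 had a log2 fold change of -2.33, the phosphatase Dusp2 of -1.49 and Ier3 of -1.64. Among integrin and adhesion genes, 1 was higher and 5 lower of 27 tested, with Itga1 at a log2 fold change of 2.34 and Itgb7 at -1.23, and the 5 fell to 3 when any 1 CMP library was left out. Chemokine genes and receptors gave 0 higher and 2 lower of 15 tested, Ccl4 among them (-2.89). Of 27 tested interferon response genes 0 were higher and 3 lower, or 9 lower without CD62L-high GMP replicate 1.

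Of 39 myeloid transcription factors tested, 3 were higher and 7 lower, or 5 higher without CD62L-high GMP replicate 1. The 3 higher were Cebpb, at 48.5, 44.2 and 48.3 CPM and 181, 149 and 140.5 CPM (1.74 ± 0.15 (SE), adjusted p = 6.68e-05), Klf4, at 73.5, 87.4 and 63.2 and 225, 182 and 159 CPM (1.34 ± 0.18 (SE), adjusted p = 0.000792), and Cebpd (1.28). Both C/EBP factors act in emergency and terminal myelopoiesis and KLF4 in monocytes. Id2, an inhibitor of helix-loop-helix factors, was lower (-3.08). Spi1, Cebpa, Irf8, Gfi1 and Cebpe were not called. Spi1, which encodes PU.1, stood at 124, 129 and 119 and 218, 182 and 171 CPM (0.62 ± 0.14 (SE), adjusted p = 0.0145), and Cebpa at 97.9, 102 and 112 and 187, 162 and 162 CPM (0.72 ± 0.13 (SE), adjusted p = 0.00585). Irf8, a determinant of monocytes and dendritic cells, stood at 751, 603 and 605 CPM and 771, 753 and 724 CPM, with overlap (0.20 ± 0.13 (SE), adjusted p = 0.401). Gfi1, a determinant of neutrophils, stood at 19.3, 23.8 and 22.6 and 16.1, 25.7 and 23.7 CPM (0.00 ± 0.21 (SE), adjusted p = 0.994), and its sign changed between settings. Cebpe, the factor of late granule genes, was at 1.93, 3.65 and 1.69 and 0.8, 1.87 and 6.94 CPM (0.41 ± 0.74 (SE), adjusted p = 0.788).

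**Figure D3:**
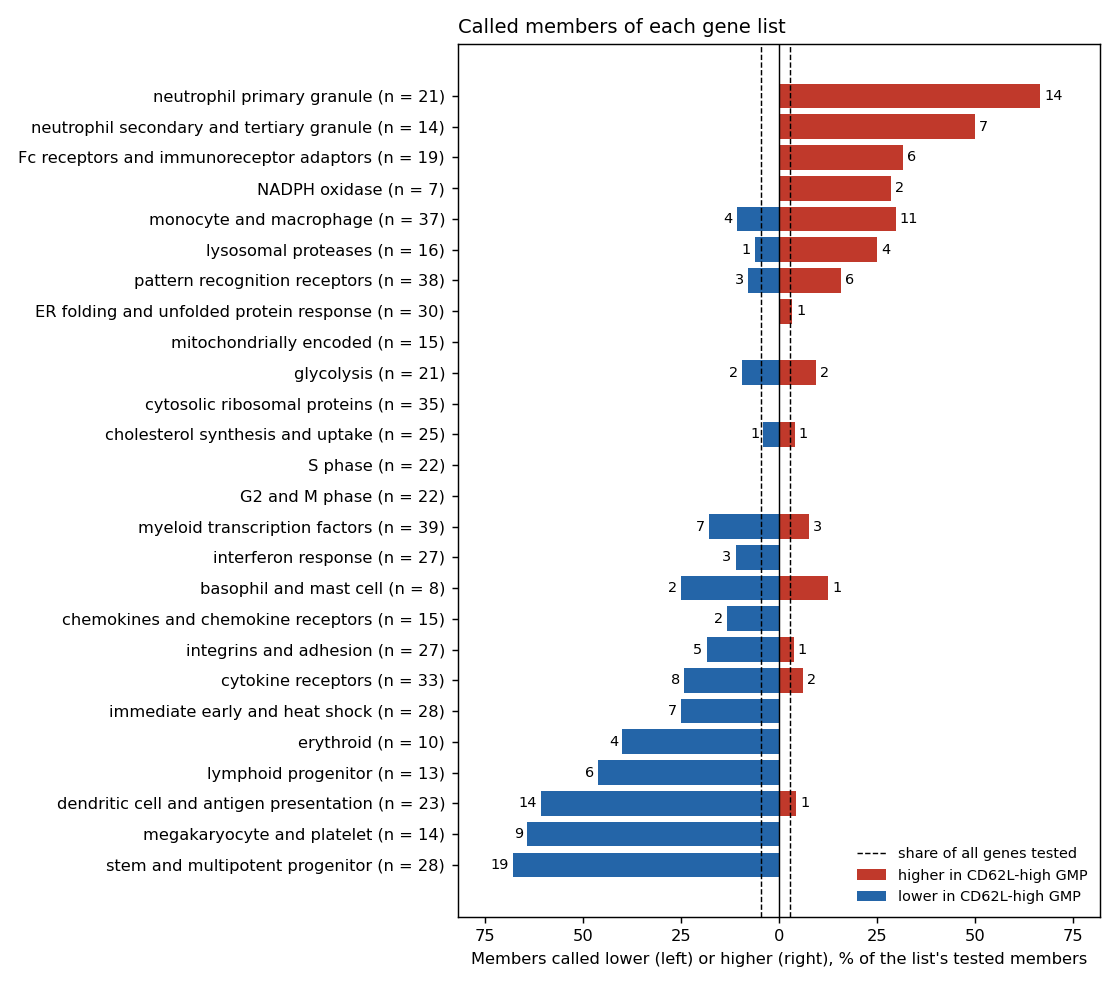
Share of tested members called in each of 26 gene lists, higher in CD62L-high GMPs to the right and lower to the left (percent of members tested), with dashed lines at the shares over all genes tested, 2.69% higher and 4.72% lower. The primary granule list reaches 14 of 21 on the right, and the stem and dendritic lists 19 of 28 and 14 of 23 on the left.

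No member was called among 22 S phase, 22 G2 and M phase, 35 cytosolic ribosomal and 15 mitochondrially encoded genes by edgeR or by DESeq2. An unadjusted edgeR p under 0.05 was reached by 5, 9, 5 and 0 of them, respectively, and by 3203 of all genes, and with the adjusted p alone 3 S phase and 5 G2 and M phase genes were higher. Genes of protein folding in the endoplasmic reticulum gave 1 higher and 0 lower of 30, and 9 higher with the adjusted p alone. Glycolysis gave 2 and 2 of 21, 19% of its members against 7.41% of all genes, and cholesterol synthesis and uptake 1 and 1 of 25, the lower one being the cholesterol exporter Abca1 (-2.61). Of the 42 genes the study names, 31 were tested, 7 were higher and 8 lower. The study took them largely from earlier literature as lineage genes and showed their levels in libraries of this series. Their directions here are therefore not independent evidence. Their lower count was 5 without CD62L-high CMP replicate 3. The higher counts of the basophil, integrin, endoplasmic reticulum, glycolysis and cholesterol lists and the lower counts of the chemokine, lysosomal protease and cholesterol lists, each 1 or 2, moved by 1 when some single library was left out.

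The bulk CMP and bulk GMP libraries, sorted without a CD62L gate and sharing no library with the comparison above, were tested in the same way. Of 12442 genes, 402 (3.23%) were higher and 741 (5.96%) lower in bulk GMPs. Of the genes called higher at high CD62L, 335 were tested in bulk, 301 (89.9%) had the same sign there and 197 were called in that direction, and of 550 called lower, 539 (98%) had the same sign and 353 were called. None was called in the opposite direction in bulk. Among all 12160 genes tested in both, 63.5% had the same sign. The study's methods state that a bulk CMP sample was left out for a low mapping rate, without saying which, and the counts above use all 3 bulk CMP libraries of the table. Without bulk CMP replicate 2, a library set apart by a large share of its counts on 3 gene models, the shares were 98.5%, 98.1% and 68.9%, and 245 and 413 genes were called in the same direction. The bulk gates contain CD62L-high cells, so the 2 comparisons are separate libraries of overlapping populations.

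The step from CMP to GMP at the other end of the CD62L range was measured by CD62L-neg GMPs against CD62L-low CMPs, with 907 of 12754 genes (7.11%) higher and 999 (7.83%) lower. The difference between the 2 steps was tested as an interaction in a fit of all 12 libraries. It passed an adjusted p of 0.05 for 1292 of 14168 genes (9.12%), of which 431 (3.04%) had a more positive step at high CD62L and 861 (6.08%) a more negative one. Of 322 genes called higher at high CD62L and tested in both, 89.1% had the same sign and 8 were called in the opposite direction, and of 534 called lower, 84.1% and 20, against 63.8% of the same sign among all genes. The gates at the 2 ends were not set alike in CMPs and GMPs, and this cannot be told apart from CD62L itself. Markers of other lineages stood high in the libraries of the second step. The 4 basophil and mast cell markers Ms4a2, Mcpt8, Cpa3 and Prss34 summed to 625 to 1100 CPM in CD62L-neg GMPs and 86.7 to 147 CPM in CD62L-low CMPs, against 2.54 to 3.63 CPM in CD62L-high GMPs and 16 to 25.3 CPM in CD62L-high CMPs on the same scaling. The eosinophil markers Epx, Prg2 and Ear1 summed to 1150 to 1770 CPM in CD62L-neg GMPs and to at most 5.29 CPM in the other 3 populations, and the megakaryocyte markers to 587 to 699 CPM in CD62L-low CMPs and 112 to 138 CPM in CD62L-neg GMPs. Their part in the differences between steps, those of Gfi1 and Cebpe included, was not tested.

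Primary granule genes named here had smaller steps at high CD62L, apart from Lyz2 and Fcnb. For Mpo the log2 step was 1.33 at high and 4.25 at low CD62L, a difference of -2.90 ± 0.28 (SE), adjusted p = 3.25e-06, and for Ctsg the difference was -3.56. Elane stepped by 3.28 and 5.12, a difference of -1.83 ± 0.24 (SE), adjusted p = 5.77e-05, and Ms4a3 differed by -1.86. Lyz2 went the other way, with a step larger by 1.99 at high CD62L, and for Fcnb no difference was detected (0.43 ± 1.25 (SE), adjusted p = 0.896). Across populations, Elane had 72.7 ± 17.3 CPM in CD62L-low CMPs, 216 ± 27.3 in CD62L-high CMPs, 2551 ± 184 in CD62L-neg GMPs and 2136 ± 376 in CD62L-high GMPs (mean ± SD, n = 3). The libraries of the 2 CMP populations did not overlap, whereas those of the 2 GMP populations did.

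Transcription factors differed in how they followed the 2 steps. Gfi1 stepped by 0.00 at high and 4.23 at low CD62L, a difference of -4.23 ± 0.26 (SE), adjusted p = 4.67e-08. Its level was 21.6 ± 2.37 CPM in CD62L-high CMPs and 21.8 ± 4.79 in CD62L-high GMPs, and 126 ± 8.88 CPM in CD62L-neg GMPs. Cebpe likewise differed by -5.48, with 54.6 ± 5.52 CPM in CD62L-neg GMPs and 3.19 ± 3.25 in CD62L-high GMPs. Klf4 had the opposite pattern, a step of 1.34 at high and -0.76 at low CD62L and a difference of 2.11 ± 0.33 (SE), adjusted p = 0.000407. The Irf8 steps, 0.20 and 0.54, did not pass the test of their difference (-0.32 ± 0.44 (SE), adjusted p = 0.741), although its level was 6.76 to 24.5 CPM in the CD62L-low CMP libraries and 644 ± 81.8 CPM in CD62L-high CMPs. Without CD62L-low CMP replicate 1 the difference of Irf8 was -1.20 and passed. Csf1r stepped by 0.72 and 2.48, a difference of -1.74, from 3.67 ± 2.20 CPM in CD62L-low CMPs and 181 ± 18.0 in CD62L-high CMPs.

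Among genes lower in CD62L-high GMPs, Cd74 had a more negative step at high CD62L, with a difference of -3.99 on the log2 scale, and its level of 140.0 ± 41.3 CPM in CD62L-high CMPs was the highest mean of the 7 populations, against 1.75 ± 1.06 CPM in CD62L-low CMPs. Angpt1 differed by -3.78 and Satb1 by -2.82 in the same direction. For Flt3 the difference of -1.20 ± 0.81 (SE), adjusted p = 0.428, did not pass the test, nor did those of Cebpb (-0.36 ± 0.33 (SE), adjusted p = 0.579) and Cybb (-1.41 ± 0.47 (SE), adjusted p = 0.0728). Without CD62L-low CMP replicate 1 those of Flt3 (-3.22) and Cybb (-2.54) passed, as did that of Cybb without CD62L-high GMP replicate 1 (-1.52). Without the filter on low counts both passed as well (Flt3 -1.21, adjusted p = 0.000202, Cybb -1.42, adjusted p = 0.00111), and Cybb passed with DESeq2 (-1.40, adjusted p = 0.0191) and with all 21 libraries (-1.41, adjusted p = 0.0425). CD62L-high GMPs lay nearest to CD62L-low GMPs, at 0.387 on the distance used above but over 21 libraries, then to bulk GMPs at 0.403, and 0.517 from CD62L-high CMPs. By the mean over pairs, CD62L-high CMPs lay nearest to bulk GMPs, at 0.429 (0.42 to 0.44), and to CD62L-low GMPs, at 0.459. Their mean distance to bulk CMPs was 0.544, but its pairs ran from 0.408 to 0.804, so the nearest pairs were as close as those to bulk GMPs. Bulk CMP replicate 2, set apart above, was kept in that mean, so the order of bulk CMPs and bulk GMPs is not settled. These distances are descriptions.

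**Figure D4:**
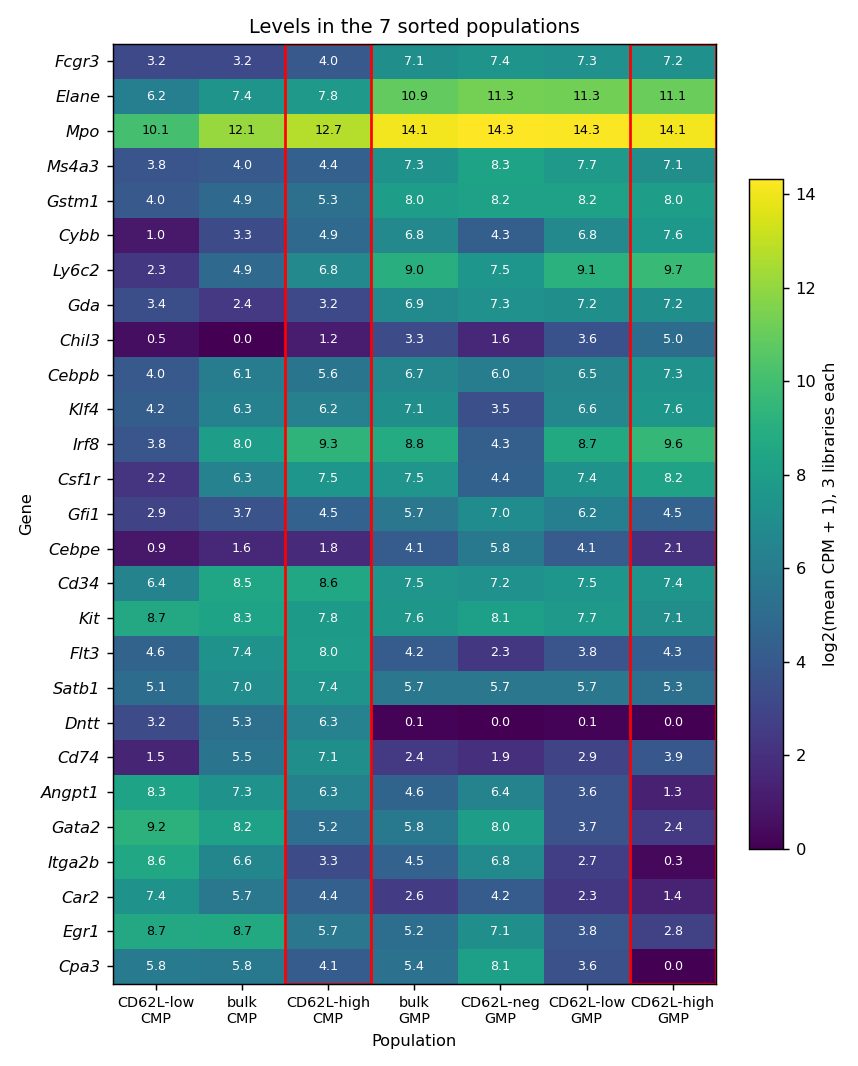
Mean level, as log2(mean CPM + 1) over 3 libraries, of 27 genes (rows) in the 7 sorted populations (columns), with the CD62L-high CMP and GMP columns boxed in red. Gfi1 and Cebpe are at their highest in CD62L-neg GMPs, and Klf4, Csf1r and Cybb in CD62L-high GMPs.

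**Figure D5:**
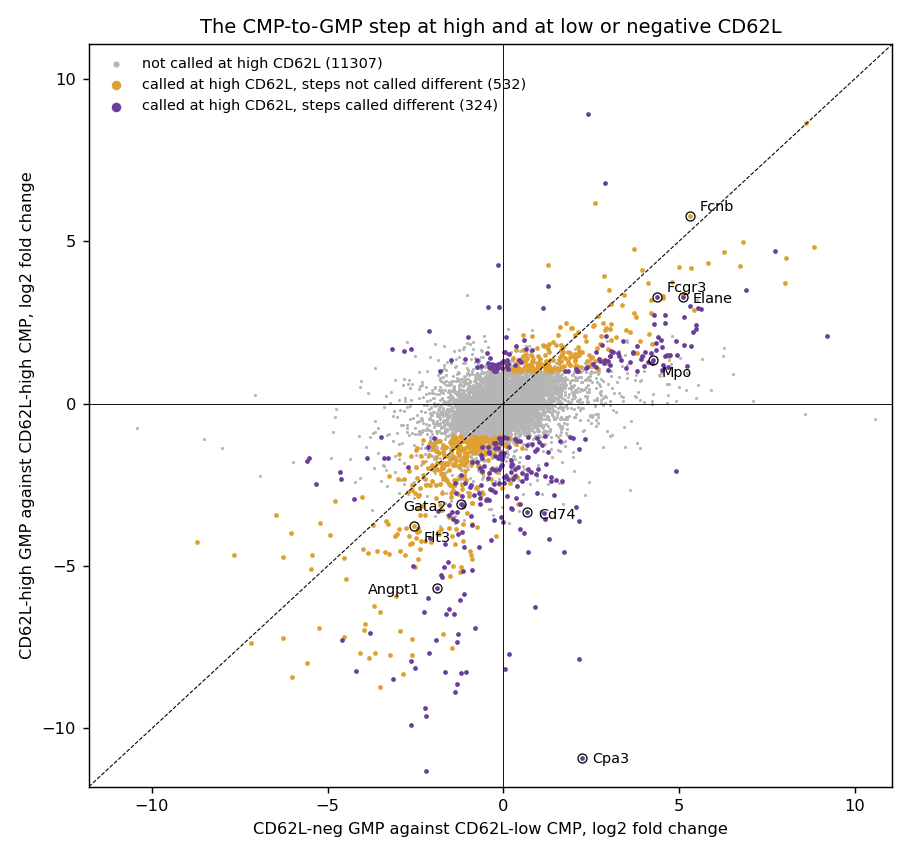
Log2 fold change of GMP over CMP at high CD62L (vertical) against that of CD62L-neg GMP over CD62L-low CMP (horizontal) for 12163 genes tested in both, with 856 genes called at high CD62L in colour, 324 of them with steps that passed the test of their difference and 532 without. The difference contains the step at high CD62L, so these 2 counts are a description; Mpo and Elane lie below the diagonal, with the smaller step at high CD62L.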

How the data were processed

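RNA-seq libraries of 7 sorted mouse populations, 3 each, were deposited by the authors as 1 table of read counts per gene. Per the labels and the study's methods, reads were trimmed with Trim Galore, aligned to mm10 with HISAT2 and counted with HTSeq; versions are not given in the sources used here. The labels name a stranded SMARTer kit and the methods SMART-Seq v.4, so the use of strand is uncertain. Of 47643 identifiers, 47224 matched a symbol. From the counts, edgeR 4.0.16 (limma 3.58.1, R 4.3.3) was run with filterByExpr, TMM scaling and the quasi-likelihood test on the 6 libraries, calling genes with a fold over 2 and a p under 0.05 after Benjamini-Hochberg adjustment. The difference between steps was fitted over 12 libraries and called at the adjusted p alone. DESeq2 1.42.0, other scalings and filters, glmTreat, a replicate block and leaving out each library were alternatives. The scripts were tested on simulated data.

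The samples, lists and tests were chosen with earlier results of these data known; lists came from general knowledge. Genes were named by rule: the first 6 sort markers, genes the study names, the 12 most changed called genes per direction at 10 CPM or more without overlap or unknown gene models, up to 5 called genes per list and direction, and 8 per direction for the difference between steps. Prtn3, Prss57, Cd74, H2-Aa, H2-Ab1, H2-Eb1, Meis1, Hoxa9, Hlf, Cd27, Sox4, Erg, Bcl11a, Tcf4 and Xrcc5, and some interaction values, were named after their values were seen. Genes with no count in 1 population were set to a floor of 3 counts over its pooled libraries; counting intervals are 95% exact intervals that cover counting error only. A few genes that these rules name are not reported here. Promoter windows came from RefSeq (GRCm38.p6).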

Additional observations from a re-analysis of the deposited data

Results flagged for a closer look

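The step from CMP to GMP differed between high CD62L and the other end of the CD62L range, by the test of the interaction, for 431 genes with the more positive and 861 with the more negative step at high CD62L. Among the largest positive differences, on the log2 scale, were those of Arhgap12 (9.95), Samd14 (8.74), Gucy1a1 (7.54), Agpat3 (7.37), Trib2 (5.89), Lpl (5.67) and Pros1 (4.88). The 8 largest negative differences were those of Epx (-15.6), Cpa3 (-12.9), Ear6 (-12.6), Prg2 (-10.9), Prg3 (-9.77), Slc22a3 (-8.90), Mcpt8 (-8.89) and Prss34 (-8.41). Of these, Epx, Ear6, Prg2 and Prg3 are genes of eosinophil granules and Cpa3, Mcpt8 and Prss34 of mast cells and basophils. For Epx, Prg2, Cpa3, Mcpt8 and Prss34 the highest mean level of the 4 populations was that of CD62L-neg GMPs (372, 1088, 274, 122 and 238 CPM). Fitted differences of genes at 0 counts in a population depend on the prior count and are not bounds. The call of Prg3 was lost without CD62L-high CMP replicate 1 (-8.73), that of Samd14 without CD62L-high GMP replicate 1 (5.04), and those of Gucy1a1 (2.31) and Trib2 (4.84) without CD62L-high GMP replicate 3.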

How the results depend on the processing

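At high CD62L, 348 genes were higher and 612 lower; leaving out 1 library gave 252 to 380 and 361 to 812. The lower count was 368 without CD62L-high CMP replicate 2 and 361 without CD62L-high CMP replicate 3. A test against a 2-fold minimum (glmTreat) gave 106 higher and 248 lower, and the adjusted p alone 758 higher. DESeq2 gave 405 and 792. The difference between steps, 431 and 861, ranged over 312 to 514 and 622 to 1052 without 1 library. The labels do not say whether same-numbered libraries are pairs, and the main fit did not pair them. Correlations of their deviations were 0.0256, 0.0764 and -0.00168, against -0.0534 to 0.0265 for different numbers. With 3 libraries a population these values cannot decide it. With the replicate number as a block, 316 genes were higher and 517 lower, 314 and 502 of them shared. Gfi1 changed sign with DESeq2-type size factors (0.000177), without the 3 gene models (0.0056), without a filter (0.00359), with 21 (0.0145) or 12 libraries (0.0152), and over the fits without 1 library (-0.126 to 0.172). Cebpe was -0.0631 with the block. Without 1 library Cebpe ranged over -0.854 to 0.862, Itgb3 over -0.214 to 0.05, Runx1 over -0.373 to 0.0229 and the difference between steps of Fcnb over -4.51 to 1.95. The cause was not tested. Over the named genes and settings, 2915 values kept direction and call, 192 lost a call, 18 gained one and 14 changed sign. Genes with few counts, and 3 libraries a population, limit precision.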

Other observations

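Xrcc5, the Ku80 subunit of DNA end joining, held 48, 64 and 41 counts in the CD62L-high CMP libraries and 0 in each CD62L-high GMP library, at least 47.2-fold lower. The other 15 libraries held 21 to 174 counts, so the 3 CD62L-high GMP libraries were the only ones at 0 of 21. Arhgap12, a GTPase-activating protein, was at 0 in the 3 CD62L-neg GMP libraries and at 22 to 155 counts in each of the others. Both genes are expressed in most cell types, and each was listed at 0 in every library of 1 population and in no library outside it. Cpa3 had the same pattern as Xrcc5, at 0 in the 3 CD62L-high GMP libraries and above 3 counts in the other 18. The cause was not tested. Xrcc5 was named after its values were seen.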
